A study of Mus musculus with 12 samples.

Results

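The genes described here are Nr3c1, which encodes the glucocorticoid receptor, and 8 genes that this receptor is known to induce, namely Fkbp5, Tsc22d3, Klf9, Zbtb16, Hif3a, Sgk1, Map3k6 and Ddit4. They are 9 of the 24445 gene symbols in the count files of cardiac macrophages (Mφ), and all 9 passed the filter on low counts that left 14608 genes. The genes were chosen by symbol with their levels in these same control, 14-day and 28-day libraries in view, and Fkbp5, Hif3a and Map3k6 also stand in a heat map that the study drew from them. Their differences between groups are therefore given as a description, with fold changes and standard errors (SE) and no p-value, and counts of these genes past a threshold are given beside the share of all genes and support nothing.

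Hearts came from male C57BL/6J mice aged 11 to 13 weeks that carried an implanted pump, with 4 mice and 1 library per mouse in each group. Control (Ct) mice received saline, early concentric hypertrophy (ECH) mice were infused for 14 days with isoproterenol, which stimulates β-adrenergic receptors, at 30 mg/kg/day, and heart failure (HF) mice for 28 days at that dose. The study infused its vehicle for 14 or 28 days, but which of these applies to each Ct mouse is not stated in the sources used here. No mouse was labelled as having received a glucocorticoid. Hearts were digested with collagenase, CD45-positive cells were enriched on beads, CD14+/CD64+ cells were sorted, and cDNA was made from their RNA with a low-input kit (SMART-Seq v4). No allele or transgene is named for any group, so no targeted gene checks the labels, and the pump is what all groups share.

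Glucocorticoids, corticosterone in the mouse, enter the cell and bind a receptor that waits in the cytoplasm in a complex with HSP90 and co-chaperones. The bound receptor moves to the nucleus and binds DNA at glucocorticoid response elements, often far from the start of a gene, which induces genes of feedback, metabolism and anti-inflammatory control, while it holds down many inflammatory genes by other routes. In Mφ the receptor is known for limiting cytokine production and favouring the uptake of dying cells. Several of the genes it induces also answer to other signals: Klf9 to thyroid hormone, Ddit4 to hypoxia and energy stress, and Sgk1 to mineralocorticoid, serum and osmotic signals.

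RefSeq promoters of 300 bases (250 before to 50 after an annotated start, build GRCm38.p6) were read for 7 of the 9 genes, 14 promoters in all. No promoter of Nr3c1 or Zbtb16 was read. Letters of the response element were searched on both strands. The full element searched was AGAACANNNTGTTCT, in which each arm is the reverse complement of the other, and a relaxed form was GNACANNNTGTNC, which lies within the full one. The full form was found in 3 of 32851 RefSeq promoters (0.009132%), and 1 of these was a promoter of Sgk1. The relaxed form was found in 156 promoters (0.475%), among them that Sgk1 promoter and the promoter of Map3k6. The FoxO motif GTAAACA was found in 1199 promoters (3.65%), among them that of Klf9. One arm of the element, AGAACA, was in 6233 promoters (18.97%), among them 1 of Tsc22d3 and 3 of Sgk1. The hypoxia motif ACGTG was in 6447 (19.62%), among them promoters of Fkbp5, Klf9, Sgk1, Map3k6 and Ddit4. None of the 14 promoters read held the full cAMP response element TGACGTCA, which 588 promoters (1.79%) held. A match describes letters in the window only. The 4 promoters printed are those with a match to the full or relaxed element or to the FoxO motif and, for contrast, that of Fkbp5, which held neither. Capitals mark the full element in Sgk1 at chr10:21993640-21993939 (plus strand), the relaxed element in Map3k6 at chr4:133240568-133240867 (plus strand) and the FoxO motif in Klf9 at chr19:23140976-23141275 (plus strand), while Fkbp5 at chr17:28486100-28486399 (minus strand) has none.
Sgk1: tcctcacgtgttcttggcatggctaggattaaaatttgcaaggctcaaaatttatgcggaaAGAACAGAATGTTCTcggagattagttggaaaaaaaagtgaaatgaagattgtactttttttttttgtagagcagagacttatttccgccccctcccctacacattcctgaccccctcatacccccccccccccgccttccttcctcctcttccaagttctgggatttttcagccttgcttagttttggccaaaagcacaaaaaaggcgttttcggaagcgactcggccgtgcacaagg
Map3k6: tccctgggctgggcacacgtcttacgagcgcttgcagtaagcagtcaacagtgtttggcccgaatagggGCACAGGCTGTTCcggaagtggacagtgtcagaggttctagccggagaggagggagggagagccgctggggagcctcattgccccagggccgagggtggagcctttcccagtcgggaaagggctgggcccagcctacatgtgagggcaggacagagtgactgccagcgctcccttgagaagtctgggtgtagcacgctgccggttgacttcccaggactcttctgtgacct
Klf9: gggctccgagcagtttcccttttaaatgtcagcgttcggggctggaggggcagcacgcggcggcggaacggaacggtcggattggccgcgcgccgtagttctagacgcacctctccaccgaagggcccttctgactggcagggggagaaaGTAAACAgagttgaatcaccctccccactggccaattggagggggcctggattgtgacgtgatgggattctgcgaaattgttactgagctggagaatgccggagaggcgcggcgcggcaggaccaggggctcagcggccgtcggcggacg
Fkbp5: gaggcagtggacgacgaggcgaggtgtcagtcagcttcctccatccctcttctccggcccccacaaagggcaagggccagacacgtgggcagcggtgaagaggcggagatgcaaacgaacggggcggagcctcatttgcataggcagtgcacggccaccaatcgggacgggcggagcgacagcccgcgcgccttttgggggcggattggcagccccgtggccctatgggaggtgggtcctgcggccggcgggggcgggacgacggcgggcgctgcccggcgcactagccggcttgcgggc
The element of Sgk1 spans bases -189 to -175 from this start, which is 1 of the 6 starts of the gene in the table, and that of Map3k6 spans bases -181 to -169.

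Totals lay between 88466559 and 111180291 counts per library, and between 13600 and 15940 genes were detected, with the fewest in HF mouse 1 and, among Ct mice, in Ct mouse 2. Levels below are CPM, the count of a gene for each 1000000 counts of its library, with library sizes scaled by the trimmed mean of M-values (TMM). The Mφ markers searched were all present, with Lyz2 at 12790 CPM or more, Fcgr1, which encodes CD64, at 71.5 to 182 CPM and Cx3cr1, which encodes the fractalkine receptor, at 23.9 to 236 CPM. A library number in the descriptions splits the libraries into what may be a pair of sets, one of Ct mice 1 to 4 with ECH mice 1 and 2 and another of HF mice 1 to 4 with ECH mice 3 and 4. Such sets are stated neither in the labels nor in the paper. Because no set holds both Ct and HF, those groups and the inferred set cannot be told apart other than through the ECH mice.

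The receptor gene itself was lower in both isoproterenol groups than in Ct. Nr3c1 (chr18:39410545-39519421, minus strand, GENCODE M21 on GRCm38) was at 304, 308, 275 and 326 CPM in Ct mice 1 to 4, at 194, 232, 193 and 187 CPM in ECH mice 1 to 4, and at 217, 234, 189 and 216 CPM in HF mice 1 to 4. Every ECH and every HF mouse lay below every Ct mouse, and the isoproterenol groups overlapped. The log2 fold change was -0.59 (SE 0.12) for ECH against Ct, -0.50 (SE 0.12) for HF against Ct and 0.09 (SE 0.12) for HF against ECH.

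Sgk1, a kinase of ion transport and cell survival, was higher in both isoproterenol groups than in Ct. Its levels (chr10:21882184-21999903, plus strand) were 136, 151, 161 and 114 CPM in Ct mice 1 to 4, 227, 281, 341 and 253 CPM in ECH mice and 207, 222, 244 and 261 CPM in HF mice. All 8 isoproterenol mice lay above all 4 Ct mice. On the log2 scale, the fold change was 0.97 (SE 0.15) for ECH against Ct, 0.73 (SE 0.15) for HF against Ct and -0.24 (SE 0.15) for HF against ECH. Sgk1 and Nr3c1 had the smallest standard errors of the 9 genes, and the plot of levels by library shows Ct apart from the isoproterenol groups for both, while ECH and HF overlapped.

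**Figure D1:**
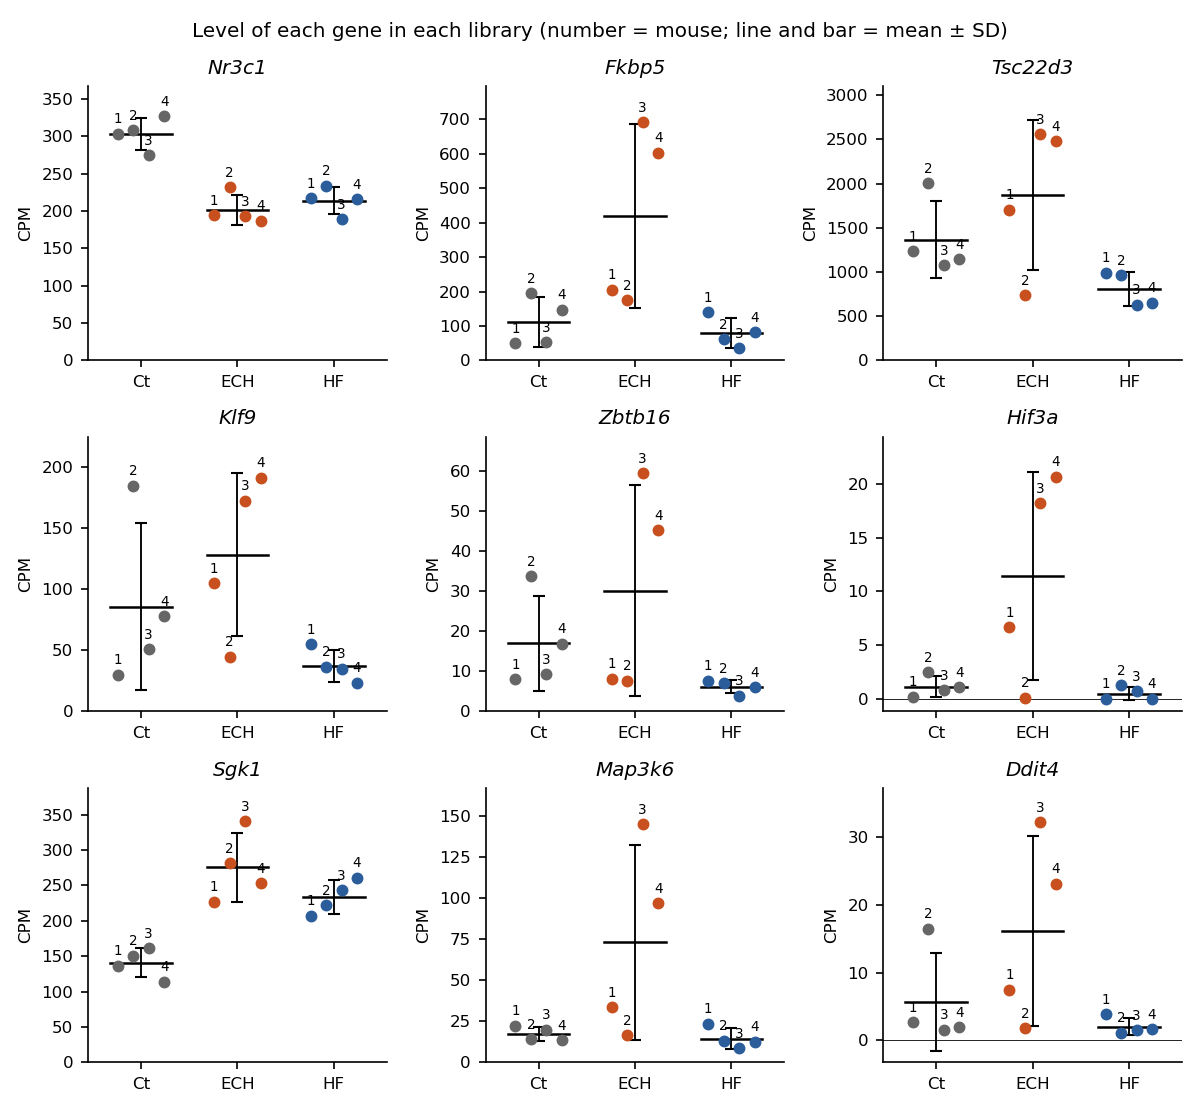
Level in CPM (linear axis, from 0) of the receptor gene and its 8 induced genes in each of the 12 libraries, where each point is a mouse with its number, lines are group means and bars are ± SD (n = 4). Nr3c1 lies below all Ct mice and Sgk1 above all Ct mice in both isoproterenol groups, while the other genes are highest in ECH mice 3 and 4, except Klf9, for which Ct mouse 2 lies between these.

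Fkbp5 encodes FKBP51, a co-chaperone that lowers the affinity of the receptor for its hormone, and it is among the genes most used to read receptor activity. Its levels (chr17:28399094-28517527, minus strand) were 50.5, 195, 53.2 and 148 CPM in Ct mice 1 to 4, 205, 175, 692 and 603 CPM in ECH mice and 140, 61.1, 35.4 and 81.3 CPM in HF mice. ECH mice 3 and 4 stood apart at a level at least 2.94 times that of any other library, whereas ECH mice 1 and 2 lay beside Ct mouse 2. Every HF mouse was below every ECH mouse, and HF overlapped with Ct. Fitted over all libraries, the log2 fold change was 1.91 (SE 0.57) for ECH against Ct, -0.49 (SE 0.56) for HF against Ct and -2.40 (SE 0.58) for HF against ECH.

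Tsc22d3 encodes GILZ, a leucine zipper protein that restrains NF-κB and AP-1, and had the highest level per length of the genes described. Its mean was 314 CPM per kb of exon (SD 99.7, n = 4) in Ct, 431 (SD 195, n = 4) in ECH and 187 (SD 44.9, n = 4) in HF. In CPM its levels (chrX:140539528-140600659, minus strand) were 1234, 2007, 1074 and 1146 in Ct mice 1 to 4, 1705, 740, 2559 and 2477 in ECH mice and 993, 965, 630 and 654 in HF mice. ECH held both the highest libraries, mice 3 and 4, and 1 of the lower ones, mouse 2, which lay within the HF range. All HF mice lay below all Ct mice. The log2 fold change was 0.45 (SE 0.33) for ECH against Ct, -0.75 (SE 0.33) for HF against Ct and -1.21 (SE 0.34) for HF against ECH.

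Klf9 and Zbtb16 encode transcription factors, a Krüppel-like factor and PLZF, a zinc finger repressor. Klf9 (chr19:23141226-23168134, plus strand) was at 30.2, 185, 50.9 and 77.8 CPM in Ct mice 1 to 4, at 105, 44.8, 173 and 191 CPM in ECH mice and at 54.98, 36.6, 35.0 and 23.5 CPM in HF mice. Ct mice spanned nearly the whole range of the 12 libraries, with Ct mouse 2 between ECH mice 3 and 4, and the groups overlapped in ECH and HF against Ct and in HF against ECH. Its log2 fold change was 0.58 (SE 0.52) for ECH against Ct, -1.20 (SE 0.52) for HF against Ct and -1.78 (SE 0.53) for HF against ECH. Zbtb16 (chr9:48654297-48836222, minus strand) was at 8.01, 33.8, 9.34 and 16.9 CPM in Ct mice 1 to 4, at 8.15, 7.70, 59.5 and 45.3 CPM in ECH mice and at 7.67, 6.98, 3.94 and 5.99 CPM in HF mice. ECH mice 1 and 2 lay beside the lowest Ct mouse. All HF mice lay below all Ct and all ECH mice, though by a margin of hundredths of a CPM between HF mouse 1 and ECH mouse 2. The log2 fold change of Zbtb16 was 0.83 (SE 0.63) for ECH against Ct, -1.47 (SE 0.64) for HF against Ct and -2.30 (SE 0.66) for HF against ECH.

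Hif3a, which encodes a hypoxia-inducible factor subunit that can act against the other subunits, was under 3 CPM outside ECH mice 1, 3 and 4. Its levels (chr7:17031507-17062427, minus strand) were 0.210, 2.49, 0.779 and 1.05 CPM in Ct mice 1 to 4, 6.67, 0.116, 18.2 and 20.7 CPM in ECH mice and 1.25 and 0.708 CPM in HF mice 2 and 3. HF mice 1 and 4 had 0 counts, which allows up to 3 counts or 0.0287 and 0.0268 CPM, and this limit covers counting error only. In counts, ECH mice 3 and 4 held 2027 and 2390, against 12 in ECH mouse 2 and 214 in the highest Ct library. On the log2 scale, the fold change was 3.33 (SE 1.55) for ECH against Ct, -1.21 (SE 1.45) for HF against Ct and -4.54 (SE 1.64) for HF against ECH, with standard errors above those of the other genes described. HF against Ct became -0.48 (SE 1.53) without Ct mouse 2 and -0.07 without Ct mouse 2 and HF mouse 1.

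Map3k6 encodes ASK2, a stress-activated kinase kinase kinase that works with ASK1. Its levels (chr4:133240818-133252929, plus strand) were 22.4, 14.2, 20.1 and 13.5 CPM in Ct mice 1 to 4, 33.6, 16.5, 145 and 97.2 CPM in ECH mice and 23.5, 13.1, 8.71 and 12.6 CPM in HF mice. Ct mice differed little for this gene, and Ct mouse 2 was not high. ECH mice 3 and 4 were at 2.89 times or more the level of every other library. Its log2 fold change was 2.06 (SE 0.54) for ECH against Ct, -0.27 (SE 0.52) for HF against Ct and -2.34 (SE 0.55) for HF against ECH.

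Ddit4 encodes REDD1, an inhibitor of the growth kinase complex mTORC1. Its levels (chr10:59949669-59951834, minus strand) were 2.68, 16.5, 1.56 and 1.91 CPM in Ct mice 1 to 4, 7.47, 1.79, 32.2 and 23.1 CPM in ECH mice and 3.90, 1.11, 1.46 and 1.65 CPM in HF mice. One library of 4 carried most of the Ct mean of 5.65 CPM (SD 7.23, n = 4), and the groups overlapped in each comparison. Fitted over all libraries, the log2 fold change was 1.51 (SE 0.88) for ECH against Ct, -1.48 (SE 0.88) for HF against Ct and -2.99 (SE 0.93) for HF against ECH. Without Ct mouse 2 these became 2.98 for ECH against Ct and -0.01 for HF against Ct.

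**Figure D2:**
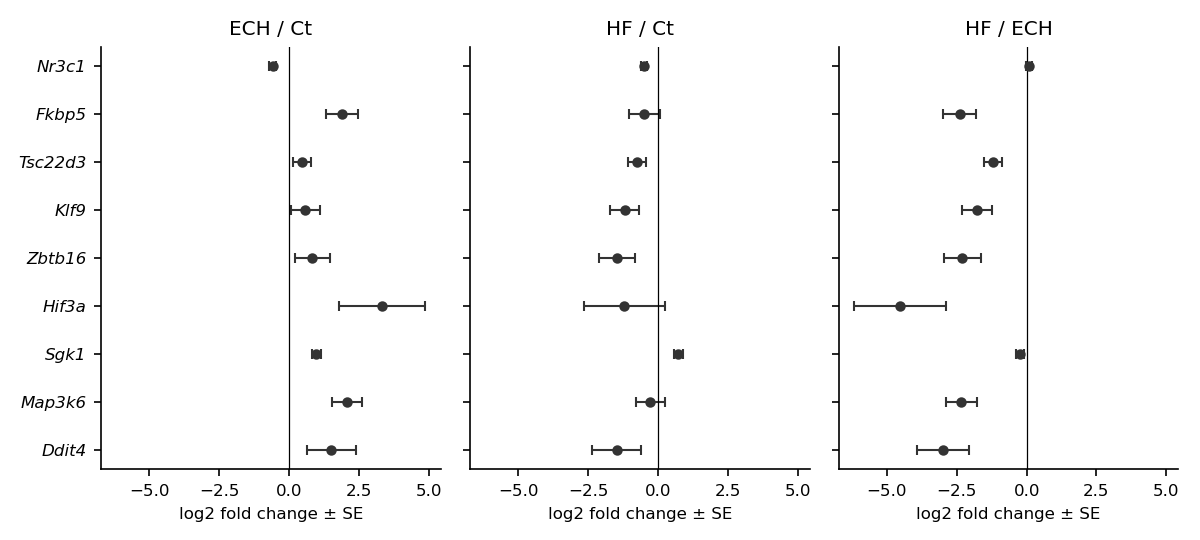
Log2 fold change ± SE of each gene (rows) for ECH over Ct, HF over Ct and HF over ECH (panels), from the fit of all 12 libraries; the line marks no difference. The SE of Hif3a reaches 1.64, whereas that of Nr3c1 and Sgk1 is at most 0.15, and 8 of the 9 genes have values below 0 in HF over ECH.

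Compared per length, as CPM per kb of exon, the genes spanned a wide range of levels. In Ct the order was Tsc22d3 at 314 (SD 99.7, n = 4), Nr3c1 at 39.5 (SD 2.79, n = 4), Sgk1 at 28.7 (SD 4.20, n = 4), Klf9 at 17.8 (SD 14.3, n = 4), Fkbp5 at 11.8 (SD 7.58, n = 4), Map3k6 at 3.81 (SD 0.95, n = 4), Ddit4 at 3.22 (SD 4.12, n = 4), Zbtb16 at 3.22 (SD 2.24, n = 4) and Hif3a at 0.169 (SD 0.145, n = 4). Klf9 and Fkbp5, and likewise Map3k6, Ddit4 and Zbtb16, lay within each other's spread. In ECH, Sgk1 (56.2, SD 9.996) and Fkbp5 (44.2, SD 28.2) came next after Tsc22d3 in the order of means, before Klf9 (26.7, SD 13.9) and Nr3c1 (26.2, SD 2.66), and Fkbp5, Klf9 and Nr3c1 did not differ beyond their spread, nor did Sgk1 and Fkbp5. In HF the order after Tsc22d3 was Sgk1 (47.6, SD 4.84), Nr3c1 (27.8, SD 2.41), Fkbp5 (8.38, SD 4.68) and Klf9 (7.79, SD 2.71), of which the last 2 lay within each other's spread.

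Set beside the rest of the transcriptome, the threshold of a 2-fold change at a false discovery rate (FDR) under 0.05 was passed by 0 of the 9 genes in any of the 3 comparisons. It was passed by 0.356% of the genes tested in ECH against Ct, by 0.377% in HF against Ct and by 0.0% in HF against ECH, where edgeR's quasi-likelihood test gave 1165 genes with an unadjusted p under 0.05 and no FDR below 0.338. By FDR alone Sgk1 and Nr3c1 passed in ECH against Ct, where 0.472% of all genes did. In ECH against Ct, 1 gene lay wholly above (Sgk1) and 1 wholly below (Nr3c1) the other group, where 4.33% and 3.64% of all genes did. In HF against Ct, 1 gene lay wholly above (Sgk1) and 3 wholly below (Nr3c1, Tsc22d3 and Zbtb16), where 4.59% and 4.45% of all genes did. In HF against ECH, 2 genes lay wholly below (Fkbp5 and Zbtb16), where 3.56% of all genes did. Because these genes were chosen from the same contrasts, nothing is read from these counts.

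Libraries also differed within their groups. ECH mice 3 and 4 were the highest pair of the 12 libraries for 6 of the 9 genes (Fkbp5, Tsc22d3, Zbtb16, Map3k6, Hif3a and Ddit4), and they were the highest pair for 6.86% of all genes tested. Within Ct, mouse 2 was the highest for 6 of the 9 genes and for 34.1% of all genes. Within HF, mouse 1 was the highest for 6 of the 9 genes and for 29.9% of all genes. For 5 genes (Fkbp5, Tsc22d3, Zbtb16, Klf9 and Ddit4) Ct mouse 2 and HF mouse 1 were both the highest of their group. The share of all genes with both was not counted, so nothing is read from this number. Ct mouse 2 and HF mouse 1 had the fewest genes detected in their groups. Without Ct mouse 2, HF against Ct came to -0.08 for Fkbp5, -0.51 for Tsc22d3, -0.89 for Zbtb16, -0.50 for Klf9, -0.48 for Hif3a and -0.01 for Ddit4, each nearer to 0 than with it. Nr3c1 came to -0.50 in both cases, and Sgk1 and Map3k6 moved away from 0, to 0.77 from 0.73 and to -0.36 from -0.27. ECH against Ct without that mouse came to 2.32 for Fkbp5, 0.70 for Tsc22d3, 1.40 for Zbtb16, 1.28 for Klf9, 1.01 for Sgk1, 4.07 for Hif3a and 2.98 for Ddit4, each farther from 0 than with it, and to 1.97 for Map3k6 and -0.58 for Nr3c1, each nearer to 0. The part of library complexity in these levels was not tested.

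The comparison of ECH with Ct depended on ECH mice 3 and 4 for several of the genes. A difference between the inferred sets and a difference between mice cannot be told apart here. Among libraries of the same set, ECH mice 1 and 2 against Ct gave a log2 fold change of 0.76 (SE 0.53) for Fkbp5, -0.16 (SE 0.38) for Tsc22d3, -1.11 (SE 0.60) for Zbtb16, -0.20 (SE 0.67) for Klf9 and -0.29 (SE 1.076) for Ddit4. The last 4 have the opposite sign to the values from all libraries. Map3k6 was at 0.51 (SE 0.36) and Hif3a at 1.58 (SE 1.36), whereas Sgk1 kept 0.85 (SE 0.20) and Nr3c1 -0.52 (SE 0.17). HF against ECH mice 3 and 4, the other set, gave -3.03 (SE 0.44) for Fkbp5, -1.63 (SE 0.20) for Tsc22d3, -3.09 (SE 0.28) for Zbtb16, -2.28 (SE 0.28) for Klf9, -3.06 (SE 0.36) for Map3k6, -5.31 (SE 1.64) for Hif3a and -3.77 (SE 0.50) for Ddit4. With ECH mice 3 and 4 left out, a choice made after their values were seen, HF against ECH mice 1 and 2 came to -1.25 (SE 0.56) for Fkbp5, -0.58 (SE 0.34) for Tsc22d3, -0.36 (SE 0.52) for Zbtb16, -0.99 (SE 0.59) for Klf9, -0.78 (SE 0.40) for Map3k6, -2.79 (SE 1.95) for Hif3a and -1.18 (SE 0.97) for Ddit4. With the inferred set as a covariate, where HF and Ct meet through the ECH mice alone, HF against Ct moved from -0.49 to -2.26 (SE 0.81) for Fkbp5, from -1.47 to -4.20 (SE 0.73) for Zbtb16 and from -0.27 to -2.55 (SE 0.56) for Map3k6. It also moved from -0.75 to -1.795 (SE 0.48) for Tsc22d3, from -1.20 to -2.48 (SE 0.84) for Klf9, from -1.21 to -3.73 (SE 2.53) for Hif3a and from -1.48 to -4.05 (SE 1.365) for Ddit4. For Sgk1 and Nr3c1, the values of ECH against Ct lay between 0.85 and 0.97 and between -0.59 and -0.51 in these settings. The same set only, ECH mice 3 and 4 left out and the covariate all compare ECH mice 1 and 2 with Ct there. Agreement between these settings was therefore fixed in advance. With the covariate, HF against Ct moved from 0.73 to 0.50 (SE 0.25) for Sgk1 and from -0.50 to -0.34 (SE 0.19) for Nr3c1.

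**Figure D3:**
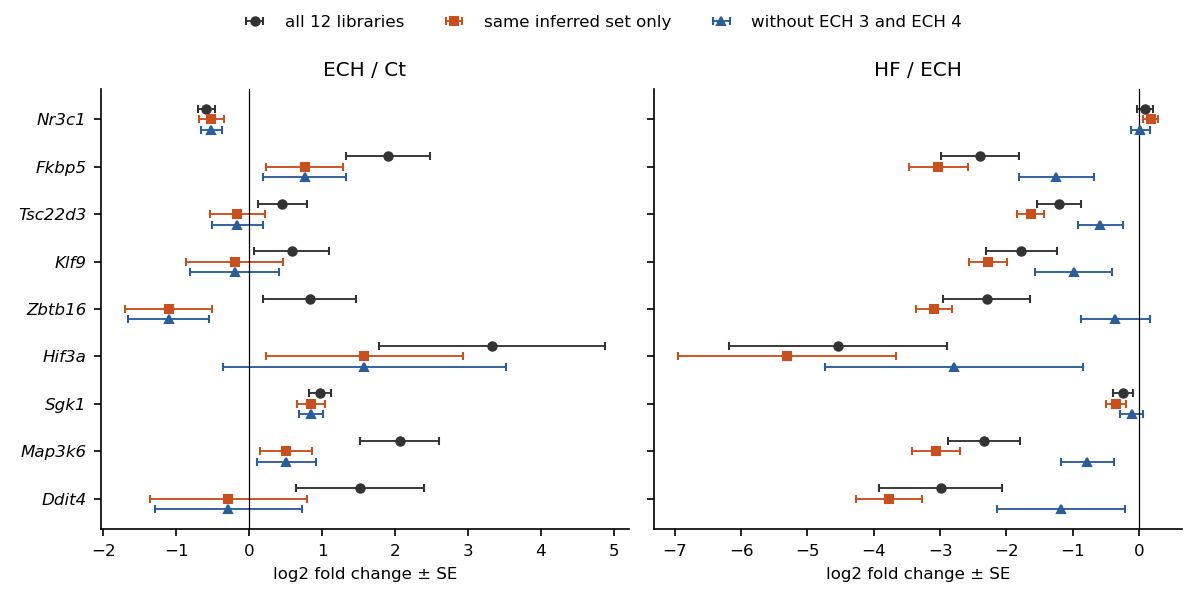
Log2 fold change ± SE of each gene for ECH over Ct and HF over ECH from all 12 libraries (circles), from libraries of the same inferred set only (squares) and without ECH mice 3 and 4 (triangles). In ECH over Ct the squares and triangles of Tsc22d3, Klf9, Zbtb16 and Ddit4 lie left of 0 and the circles right of it, while Nr3c1 and Sgk1 keep their values.

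The profiles of Fkbp5 and Tsc22d3 over the 12 libraries were compared with those of 9864 other genes of at least 5 CPM on average. The measure was the root mean square (RMS) difference of log2 CPM after centring each gene on its mean. Closest to Fkbp5 were Rnf169 (0.67), Vcam1 (0.72), Pnpla2 (0.73), Acp5 (0.79) and Gdap2 (0.80). Rnf169 encodes a ubiquitin-binding protein of the DNA damage response and was at 159 and 161 CPM in ECH mice 3 and 4, against 32.7 to 73.8 CPM in the other libraries. Pnpla2 encodes the lipase that begins triglyceride breakdown, and was at 431 and 482 CPM in ECH mice 3 and 4, against 78.8 to 139 CPM elsewhere. Closest to Tsc22d3 were Sult1a1 (0.26), Glul (0.27), Ascc1 (0.30), Per1 (0.31) and Trim2 (0.32). Glul (glutamine synthetase) and Per1 (a period gene of the clock) are in the list of other glucocorticoid-induced genes used below, which was written with earlier results of these data known. Glul was at 185 to 356 CPM in Ct, 159 to 374 CPM in ECH and 144 to 234 CPM in HF, and Per1 reached 82.0 CPM in Ct mouse 2, 64.0 CPM in ECH mouse 4 and 25.6 CPM in HF mouse 2. Between the genes described here the closest pair was Tsc22d3 and Klf9 (0.51), and Hif3a was the farthest from Nr3c1 (2.61).

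A further 24 genes known to be induced by glucocorticoids were split in direction. In ECH against Ct, 12 had a log2 fold change above 0 and 12 below, and their median was -0.04 against 0.01 over all genes tested. By edgeR's quasi-likelihood test 0 passed the threshold. An unadjusted p under 0.05 by that test was reached by 9 of the 24, a larger share than the 11.9% of all genes. The largest values were those of Mertk, the efferocytosis receptor, at 1.43 (SE 0.35, FDR 0.101), the decoy receptor gene Il1r2 at -1.42 (SE 0.67, FDR 0.429), the fasting kinase gene Pdk4 at 1.34 (SE 1.56, FDR 0.783) and the transglutaminase gene Tgm2 at 0.86 (SE 0.55, FDR 0.581). Il1r2 was at 214 CPM in Ct mouse 2 and at 27.4 to 62.5 CPM in the other Ct mice, against 25.8 to 42.7 CPM in ECH. Mertk and Cd163, the hemoglobin scavenger receptor gene, are also named by the study from these libraries and are no independent evidence.

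In HF against Ct, 4 of these 24 genes had a value above 0 and 20 below, with a median of -0.37 against -0.01 over all genes. By edgeR's quasi-likelihood test 7 of the 24 had an unadjusted p under 0.05, a larger share than the 16.1% of all genes. Anxa1, which encodes the anti-inflammatory protein annexin A1, was the gene that passed the threshold, with a log2 fold change of 1.21 (SE 0.20, FDR 0.0228). It was at 258, 220, 348 and 160 CPM in Ct mice 1 to 4 and at 589, 548, 565 and 584 CPM in HF mice, where no HF mouse overlapped with Ct. ECH mice were at 463, 446, 322 and 377 CPM, all below HF, and ECH mouse 3 lay within the range of Ct. The log2 fold change lay between 1.06 and 1.59 in 21 other settings, 14 of which kept the call, and it was lost without Ct mouse 1 and without each of the HF mice in turn (values of 1.199 to 1.237), with the replicate block (1.24) and without Ct mouse 2 and HF mouse 1 together (1.14). In HF against ECH, 6 genes had a value above 0 and 18 below, with a median of -0.23 against -0.02 over all genes. By the same test 0 passed the threshold, with a lowest FDR of 0.490. An unadjusted p under 0.05 was reached by 8 of the 24, a larger share than the 7.98% of all genes.

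**Figure D4:**
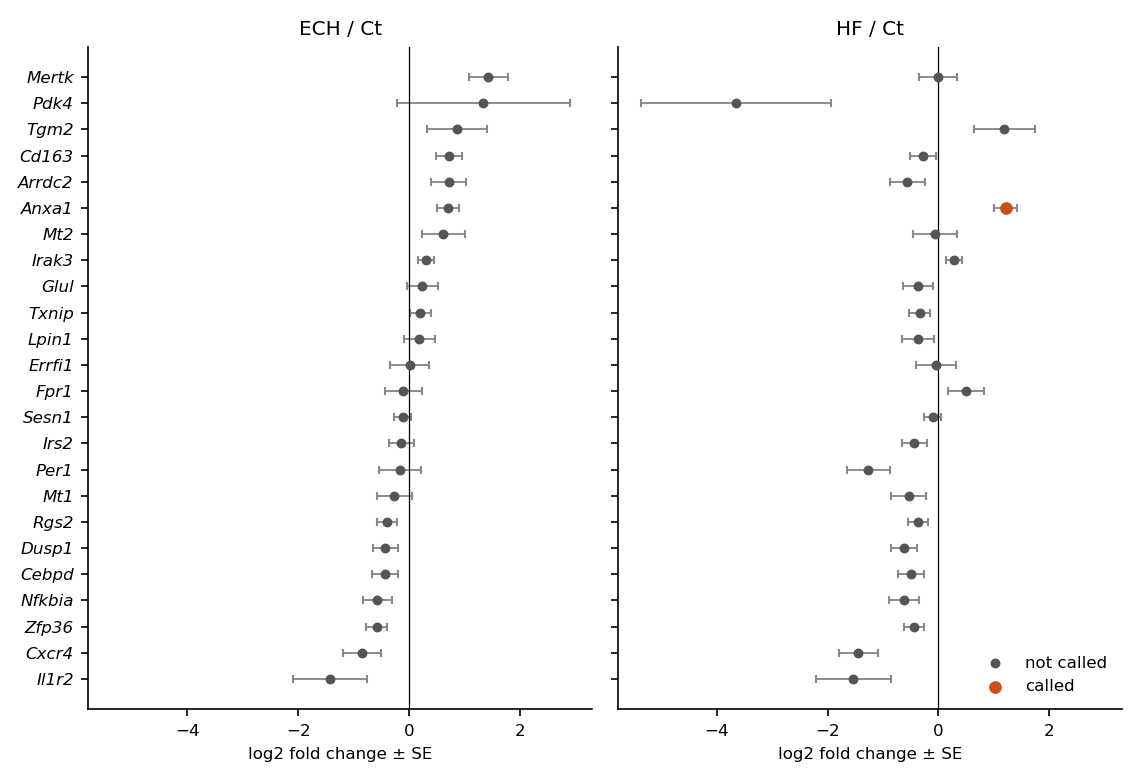
Log2 fold change ± SE of the other 24 glucocorticoid-induced genes for ECH over Ct and HF over Ct, ordered by the former. Anxa1 is the point past the threshold (coloured, HF over Ct), and 20 of the 24 values lie below 0 in HF over Ct.

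The pattern of ECH mice 3 and 4 was present in part of that list. Mertk, Cd163, Pdk4, Mt2, Txnip, Lpin1 and Arrdc2 (7 of 24) had both as their highest libraries, against 6.86% of all genes tested. Mertk was at 496 and 414 CPM in ECH mice 3 and 4, against 76.0 to 183 CPM in the other libraries. Arrdc2, an arrestin domain gene, was at 84.2 and 99.3 CPM against 20.4 to 52.4 CPM. Other genes of the same list were not high there. Dusp1, the phosphatase that ends MAP kinase signals, was at 3929 and 4552 CPM in ECH mice 3 and 4 and at 5420 to 6893 CPM in Ct. In ECH mice 1 and 2 it was at 6963 and 3539 CPM, and in HF at 2858 to 5153 CPM. Zfp36, which encodes a protein that destabilises cytokine mRNA, was at 2728 and 3566 CPM in ECH mice 3 and 4, against 5033 to 5918 CPM in Ct. Its levels were 4839 and 3594 CPM in ECH mice 1 and 2 and 3220 to 5074 CPM in HF. Errfi1 had ECH mice 3 and 4 as its lowest libraries.

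**Figure D5:**
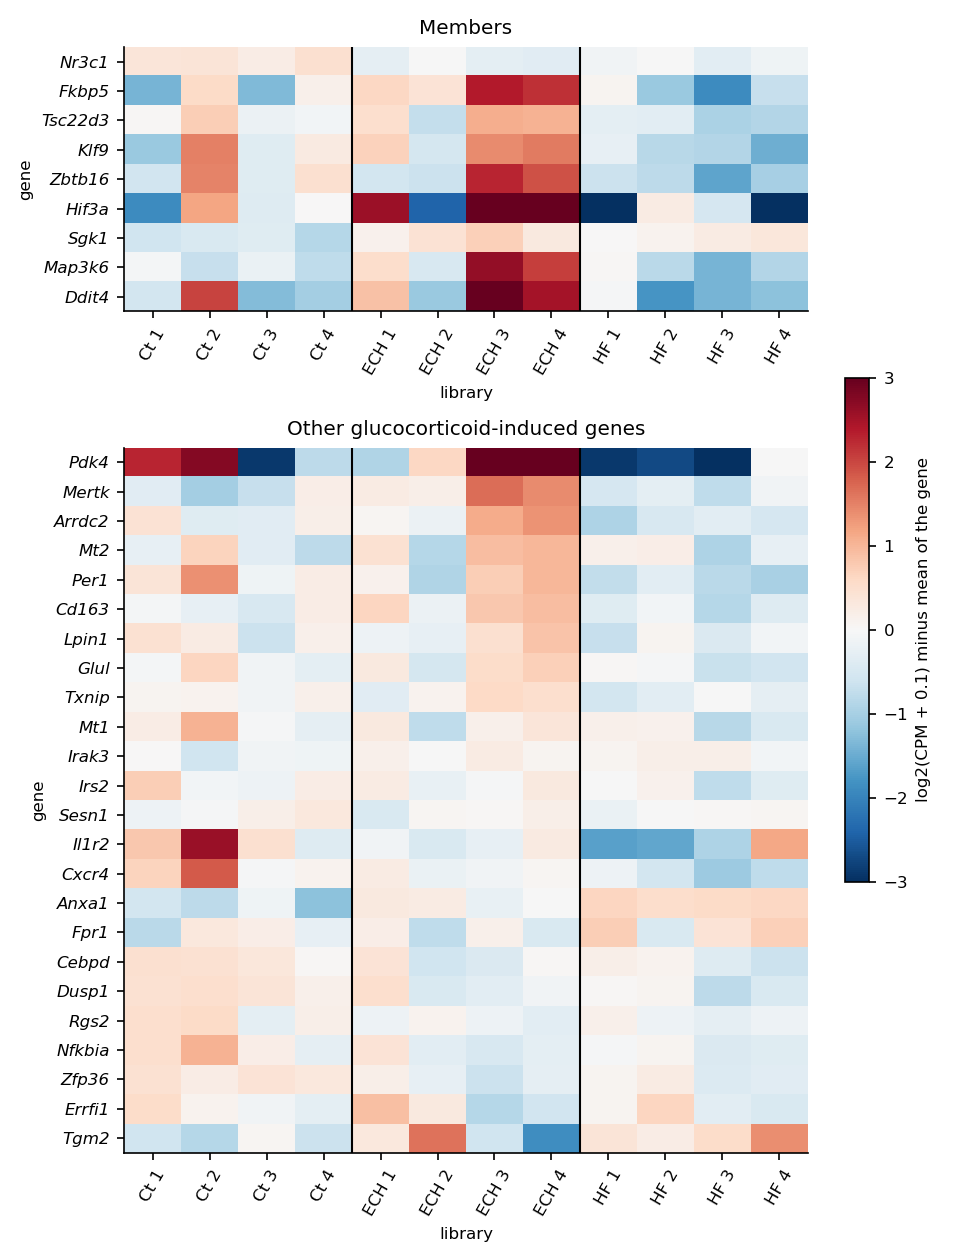
Profiles of the receptor gene and its 8 induced genes (upper) and of the other 24 induced genes (lower, ordered by ECH mice 3 and 4), as log2(CPM + 0.1) minus the mean of the gene; colours end at ± 3. ECH mice 3 and 4 are red for all induced genes of the upper block and for the upper genes of the lower block, and Ct mouse 2 is red for 6 of the 8 induced genes of the upper block, the exceptions being Sgk1 and Map3k6.

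Of 15 genes of the receptor complex and of hormone handling 14 could be tested, and 0 passed in any comparison by edgeR's quasi-likelihood test. Of these 14, 3 had an unadjusted p under 0.05 by that test in ECH against Ct, beside 11.9% of all genes. The number was 6 of 14 in HF against Ct, beside 16.1%, and 2 of 14 in HF against ECH, beside 7.98%. Hsd11b1, whose enzyme reactivates the hormone, was at 20.3 CPM in Ct mouse 2 and at 1.45 to 4.90 CPM in the other libraries. Hsd11b2, whose enzyme inactivates it, had counts in HF mouse 2 alone, at 0.185 CPM. Nr3c2, the mineralocorticoid receptor gene, was at 1.57 to 6.93 CPM in Ct, 3.04 to 4.04 CPM in ECH and 1.08 to 2.35 CPM in HF. Hsp90aa1, the inducible HSP90 gene, was lowest in ECH mice 3 and 4, at 166 and 206 CPM against 268 to 1540 CPM in the other libraries, and the coactivator gene Ncoa1 was highest there, at 254 and 220 CPM against 60.9 to 110 CPM.

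Inflammatory genes that glucocorticoids repress gave 0 calls among the 11 tested of 12, with a median log2 fold change of -0.30 in ECH against Ct and -0.29 in HF against Ct. Il6 had the largest value, -1.83 (SE 0.48, FDR 0.126) in ECH against Ct and -1.74 (SE 0.48, FDR 0.127) in HF against Ct. ECH mice 3 and 4 were the lowest pair for Il1b, Ccl4 and Cxcl10, against 5.05% of all genes tested. Il1b was at 255 and 382 CPM there, against 553 to 1357 CPM in the other libraries. Cxcl10 was at 6.44 and 5.87 CPM against 12.4 to 92.9 CPM.

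Genes of other signals that reach the same targets were read in the same way. Of 11 FoxO targets 0 passed in any comparison. In ECH against Ct 6 had a value above 0 and 5 below. In HF against Ct all 11 lay below 0 (median -0.549), and in HF against ECH 9 did (median -0.555). By edgeR's quasi-likelihood test 4, 5 and 5 of the 11 had an unadjusted p under 0.05 in these comparisons, beside 11.9%, 16.1% and 7.98% of all genes. Pik3ip1, Klhl24, Trp53inp1 and Fbxo32 had ECH mice 3 and 4 as their highest libraries. Pik3ip1, an inhibitor of PI3-kinase, was at 113 and 154 CPM there, against 2.75 to 28.4 CPM in the other libraries. Of 11 cAMP and CREB genes 0 passed, and Ptger2, a prostaglandin E2 receptor gene, was at 46.5 and 31.4 CPM in these mice against 2.54 to 13.3 CPM. Of that list Sik1 and Ptger2 had these mice as their highest libraries, and Nr4a1, Crem and Areg as their lowest. Of 11 hypoxia genes 0 passed, and Pdk1 and Bnip3 were highest there. Of 14 clock genes, Bhlhe40, a repressor of the clock that also answers to hypoxia, passed in HF against Ct with a log2 fold change of 1.54 (SE 0.31, FDR 0.0455, called in 10 of 21 other settings). In the same list, Per2, Cry1 and Cry2 had ECH mice 3 and 4 as their highest libraries. Sources used here do not give the hour at which hearts were taken.

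The 10 genes induced by tissue dissociation, early response and heat shock genes such as Fos, Egr1 and Hspa1a, had values below 0 for 10 of 10 in both ECH and HF against Ct, with medians of -0.82 and -0.78, and 0 passed. Their summed level was 27960 to 40400 CPM in Ct, 11200 to 28870 CPM in ECH and 13480 to 24110 CPM in HF, and it was lowest in ECH mouse 3. Atf3 was at 382 and 548 CPM in ECH mice 3 and 4, against 1008 to 2635 CPM in the other libraries. The part of dissociation or of its timing in the levels of the genes described was not tested.

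Markers of other cell types moved with some of the same libraries. B cell markers summed to 106 to 502 CPM in Ct, 44.4 to 88.8 CPM in ECH and 58.2 to 86.04 CPM in HF, highest in Ct mouse 2. T, NK and innate lymphoid markers were also highest in Ct mouse 2, at 114 CPM against 24.6 to 67.1 CPM in the other libraries, as were neutrophil markers, at 1634 CPM against 131 to 1266 CPM, and cardiomyocyte markers, at 270 CPM against 77.3 to 221 CPM. ECH mice 3 and 4 were not high for lymphocyte markers, and mouse 3 was the lowest of the 12 libraries for B cell markers. Both lay within the Ct range for the sum of T, NK and innate lymphoid markers. Il7r alone made up most of that sum in these mice, at 21.75 and 16.09 CPM, against 4.651 to 18.77 CPM in Ct. In ECH against Ct, Il7r had a log2 fold change of 1.109 (SE 0.3825), and the other 10 of the 11 genes lay below 0. The sum therefore does not show the level of those other genes. Endothelial markers summed to 34.5 to 115 CPM over all libraries, highest in ECH mouse 3, with Cdh5 at 1.88 CPM or less in each library. Fabp4 alone made up most of the sum in ECH mouse 3, at 78.5 CPM, and was at 15.9 to 53.6 CPM in the other libraries. Fibroblast and mural markers summed to 32.7 to 430 CPM, with ECH mouse 4 the highest and ECH mouse 3 at 83.4 CPM. Of 4 adipocyte markers, Adipoq, Cidec and Lep had 0 counts in all libraries. Within Mφ markers, Adgre1 and Cx3cr1 had ECH mice 3 and 4 as their lowest libraries, with Cx3cr1 at 50.1 and 23.9 CPM against 126 to 236 CPM elsewhere. In sorted bulk samples a shift in the mix of cells and a shift in RNA per cell cannot be told apart, and the part of other cells in the levels of the genes described was not tested.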

How the data were processed

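Gene counts were analysed from FACS-sorted cardiac Mφ of 12 mice (4 per group), grouped by the condition in the labels. As the methods state, the authors amplified RNA with SMART-Seq v4, sequenced it from both ends on a NextSeq instrument, used Trimmomatic for trimming, TopHat2 for alignment to mm10 and featureCounts for counting. The deposited files hold raw counts without normalization. Not given in the sources used here are software versions, the annotation, the strand setting and the unit counted (read or fragment). Without molecular identifiers, limits for 0 counts (3 counts) cover counting error only.

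The analysis used edgeR 4.0.16 in R 4.3.3: filterByExpr, TMM scaling, 1 mean per group over all 12 libraries (common dispersion 0.370), quasi-likelihood tests and Benjamini-Hochberg adjustment over 14608 genes. SE is the log2 fold change over the root of the F statistic. A gene was called at FDR under 0.05 and at least 2-fold. Replicates were checked for duplicates (none), and p-values measure the spread between these mice.

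The members and lists were chosen with earlier results of these data known. Named are each member in each library, list genes past the FDR threshold, up to 4 per list with the largest change in ECH against Ct, and the 5 nearest profiles of Fkbp5 and Tsc22d3; genes ranked by ECH mice 3 and 4 were named after their values were seen. A result on 1 list gene is not reported here. Alternatives were RLE scaling, DESeq2 1.42.0, limma-voom (limma 3.58.1), 2 other filters, only the groups compared, a replicate block, the inferred library set (covariate, or same set only), leaving out libraries, and FDR alone. Code was tested on simulated data. Positions are from GENCODE M21. Figures were drawn with Python and matplotlib.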

Additional observations from a re-analysis of the deposited data

Results flagged for a closer look

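In 27 groups of 4 values (each gene in each group) 2 held a library farther from the others than Dixon's 95% critical value allows, and chance flags about 1 in 20 such groups. Ddit4 in Ct mouse 2 was at 16.5 CPM, against 1.56 to 2.68 CPM in the other Ct mice. Nr3c1 in ECH mouse 2 was at 232 CPM, where the remaining ECH mice had 187 to 194 CPM, and lay below all Ct mice.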

How the results depend on the processing

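In ECH against Ct the 52 called genes became 248 with DESeq2, 84 with limma-voom, 8 with only both groups in the fit, 22 with the replicate block, 22 with the inferred set as covariate, 1 in the same set only, 20 without ECH mice 3 and 4, and 11 to 95 when 1 library was left out. In HF against Ct the 55 became 336 with DESeq2, 130 with limma-voom, 18 with the replicate block, 208 with the set as covariate, and 15 to 103 when 1 library was left out. In HF against ECH the 0 became 47 with DESeq2, 272 with the set as covariate and 370 in the same set only. Of the 9 genes described, in place of 0, DESeq2 called 1 in ECH against Ct (Map3k6) and 5 in HF against ECH (Ddit4, Fkbp5, Map3k6, Tsc22d3 and Zbtb16), limma-voom called 1 in ECH against Ct (Sgk1), FDR alone 2 there, and leaving out 1 library 0 to 1 there (Sgk1, or Map3k6 without ECH mouse 2). The set as covariate called 2 in HF against Ct (Map3k6 and Zbtb16) and 6 in HF against ECH. The same set only, which compares the same mice in HF against ECH, called 6 there as well (Klf9 added to the 5 of DESeq2). These genes were chosen from the same contrasts, so these calls are no support. Of the other 24 induced genes, DESeq2 called 1 in ECH against Ct (Mertk), 3 in HF against Ct (Anxa1, Cxcr4 and Per1) and 2 in HF against ECH (Arrdc2 and Mertk), limma-voom called 2 in HF against Ct (Anxa1 and Cxcr4), the set as covariate called 3 in HF against Ct and 4 in HF against ECH, and the same set only called 4 there (Arrdc2, Cd163, Mertk and Per1). Anxa1 in HF against Ct was not called (0) with the replicate block and without Ct mouse 2 and HF mouse 1, and leaving out 1 library gave 0 to 2 there and 0 to 1 in ECH against Ct. The same replicate number did not pair the mice (0 of 12 pairs had a correlation of deviations over 0.1, from -0.08 to 0.08, and 1 library correlated best with its own number). RLE scaling shifted log2 fold changes of ECH against Ct by -0.01 (median over genes), and no value of the 9 genes passed the threshold with a sign opposite to that given above. The cause of these differences was not tested. Levels near 0 (Hif3a in HF mice 1 and 4, and Hsd11b2) are limited by depth.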
